A study of Rattus norvegicus with 5 samples.

Results

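The transcripts described here were abundant in every ovary of the series and kept their level within a 2-fold range across all 5 of them. They were chosen by measured values. A member had a length of 1000 bases or more, a level of 100 TPM or more in all 5 libraries, and a highest level less than 2 times its lowest. TPM is a relative abundance of transcripts scaled by transcript length, with the same total in each library. Of 299341 transcripts listed in any library, 218 met the length and level conditions, and 129 of these also met the ratio condition. The other 89 are called the variable abundant transcripts below.

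Levels were measured by RNA sequencing in whole ovaries of young adult female Sprague Dawley rats of 10 to 12 weeks, with 1 ovary sequenced from each group of 6 rats. The control rats were given 0.9% NaCl 5 times. Cisplatin, a platinum drug that crosslinks DNA, was injected into the peritoneum at 3 mg/kg once a week, 3 times as a mild and 5 times as a severe model of premature ovarian insufficiency. In a further group for each schedule, platelet-rich plasma (PRP) from donor rats was injected into the ovary through a laparotomy 1 week after the last cisplatin dose, with antibiotics afterwards, and the ovaries were taken 2 weeks later. Control ovaries were taken 2 weeks after the last saline injection. The labels do not say when the rats given cisplatin alone were sampled. Each group was thus a single library of a single animal. No difference below was tested, no p-value is given, and the spread between animals of a group is unknown.

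The ovary is a mixed tissue of oocytes, granulosa and theca cells, luteal cells, stroma, vessels and blood cells, and the balance of these changes with the cycle and with the loss of follicles. Transcripts that nearly every cell needs, such as those of the cytoskeleton, of protein synthesis and of energy metabolism, are commonly abundant, and some serve as reference transcripts against which others are measured. A level in a whole ovary is the product of how many cells of a type are present and how much of the transcript each cell holds, and these cannot be told apart here. The files identify transcripts by running numbers up to 495970. Of these identifiers, 0 were found in the gene table of assembly GRCr8, so the members are given by number, and neither their genes nor the ovarian marker genes could be looked up. No sequence is shown for the same reason.

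The libraries held 26383246 to 31822055 estimated counts and listed 180115 to 258238 transcripts. A member had at least 2250 estimated counts in each library and at most 85348. The exact Poisson 95% interval of a member's level therefore had a half-width of at most 4.16%. Such intervals cover counting error only. Length minus effective length, a measure of fragment length, was 186 bases in the library of 3 cisplatin injections and 194 bases in that of 5 injections with PRP. It was 217 to 229.9 bases in the other 3 libraries.

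Together the 129 members made up 3.00% of all TPM in the control ovary. The share was 3.79% in the 3-injection and 3.66% in the 3-injection PRP ovary, and 3.61% and 3.62% in the ovaries of the longer schedule. By TPM the control ovary had the lowest share. As a share of estimated counts, which are not divided by length, the members made up 4.61% in the control ovary, 4.92% and 4.28% on the shorter schedule without and with PRP, and 4.73% and 5.86% on the longer. By that measure the 3-injection PRP ovary was lowest and the 5-injection PRP ovary highest. The median level of a member was 164 TPM in the control ovary, 211 TPM after 3 injections and 201 TPM with PRP added. It was 192 TPM after 5 injections and 205 TPM with PRP added. The geometric mean over the 5 libraries ran from 115 to 1786 TPM, with a median of 189 TPM. It was under 200 TPM in 72 members, from 200 to under 500 TPM in 45, and 500 TPM or more in 12.

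The ratio of highest to lowest level ran from 1.14 to 1.998 over the members, with a median of 1.58. It was under 1.2 in 2 members, from 1.2 to under 1.4 in 27, from 1.4 to under 1.6 in 40, from 1.6 to under 1.8 in 35, and 1.8 or more in 25. The variable abundant transcripts had a median ratio of 2.66 and reached 40.4. Of these, 63 had a ratio under 3 and 8 had a ratio of 5 or more. The last ratio under the limit was 1.998 and the first above it was 2.07.

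**Figure D1:**
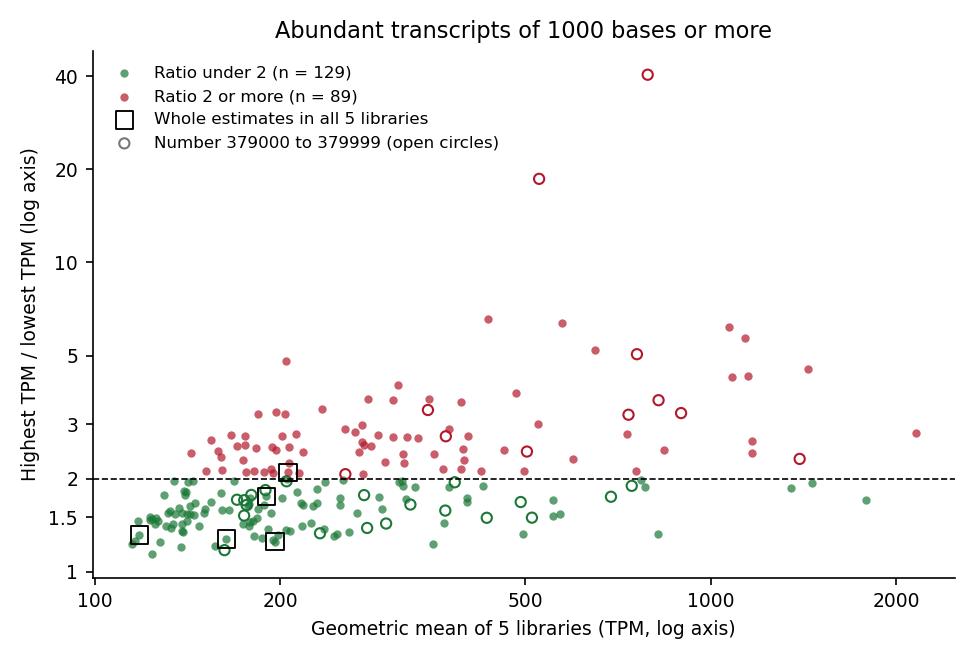
Each point is 1 of the 218 transcripts of 1000 bases or more with at least 100 TPM in all 5 libraries. The horizontal axis is the geometric mean level in TPM (log axis) and the vertical axis is the highest level over the lowest (log axis). The dashed line is the limit of 2, with 129 transcripts below it and 89 above it. Squares mark the 5 transcripts with whole estimates, and open circles the 31 with numbers from 379000 to 379999.

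The steadiest members moved little in any ovary. The lowest ratio was that of transcript_81759, of 1719 bases, at 120.2 TPM in the control ovary. It stood at 124 TPM after 3 injections, 118 TPM after 3 with PRP, 123 TPM after 5 and 135 TPM after 5 with PRP. Its ratio was 1.14, with a counting interval of 1.10 to 1.19, and its highest value was in the 5-injection PRP ovary.

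Next came transcript_379530, of 1006 bases, with levels of 155, 149, 175, 176 and 160 TPM, given in the same order from control to 5 injections with PRP. The third, transcript_313987, of 1267 bases, had 138, 126, 138, 151 and 140.4 TPM. In both transcripts the 3-injection ovary was lowest and the 5-injection ovary highest, with ratios of 1.18 and 1.201.

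The following 5 had ratios from 1.21 to 1.252. Among them transcript_77897, of 1316 bases, was the most abundant, at 352 TPM in the control ovary, 315 and 379 TPM after 3 injections without and with PRP, and 388 and 341 TPM after 5. Its 3-injection ovary was again the lowest and its 5-injection ovary the highest. By contrast transcript_225851, of 2320 bases, was highest after 3 injections, at 176 TPM, and lowest in the control ovary, at 145.3 TPM. These 8 members therefore shared no common order of the libraries. Of the rest, transcript_117093 was at 106 to 131 TPM, transcript_177673 at 111 to 139 TPM and transcript_7320 at 179 to 224 TPM.

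The 8 most abundant members were less steady, with ratios from 1.33 to 1.98. They made up 22.0% to 25.7% of the members' summed level in the 5 libraries. The first was transcript_213518, of 1095 bases, at 1528 TPM in the control ovary, 1774 TPM after 3 injections, 1444 TPM with PRP added, 1875 TPM after 5 injections and 2474 TPM with PRP added. The 5-injection PRP ovary stood above the other 4.

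The next, transcript_380013, of 1913 bases, had the reverse order at that end. It was at 1367, 1944, 1397, 1795 and 1002 TPM in the same order of libraries, lowest in the 5-injection PRP ovary. The third was transcript_3920, of 1063 bases, at 928 TPM in the control ovary and 1421, 1381, 1412 and 1739 TPM in the others. Here the control ovary lay below all 4 treated ovaries.

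Of the remaining 5, transcript_314899, of 2000 bases, was the steadiest at this level, with 777, 978, 738, 849 and 776 TPM and a ratio of 1.33. Both transcript_439693 and transcript_59765 were lower in the control and 5-injection PRP ovaries than in the other 3. The former had 549.9 and 599 TPM there against 856 to 1032 TPM, and the latter 707 and 517 TPM against 853 to 1023 TPM. On the longer schedule the last pair went opposite ways with PRP, transcript_379330 upward from 816 to 1105 TPM and transcript_379545 downward from 604 to 569.7 TPM.

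**Figure D2:**
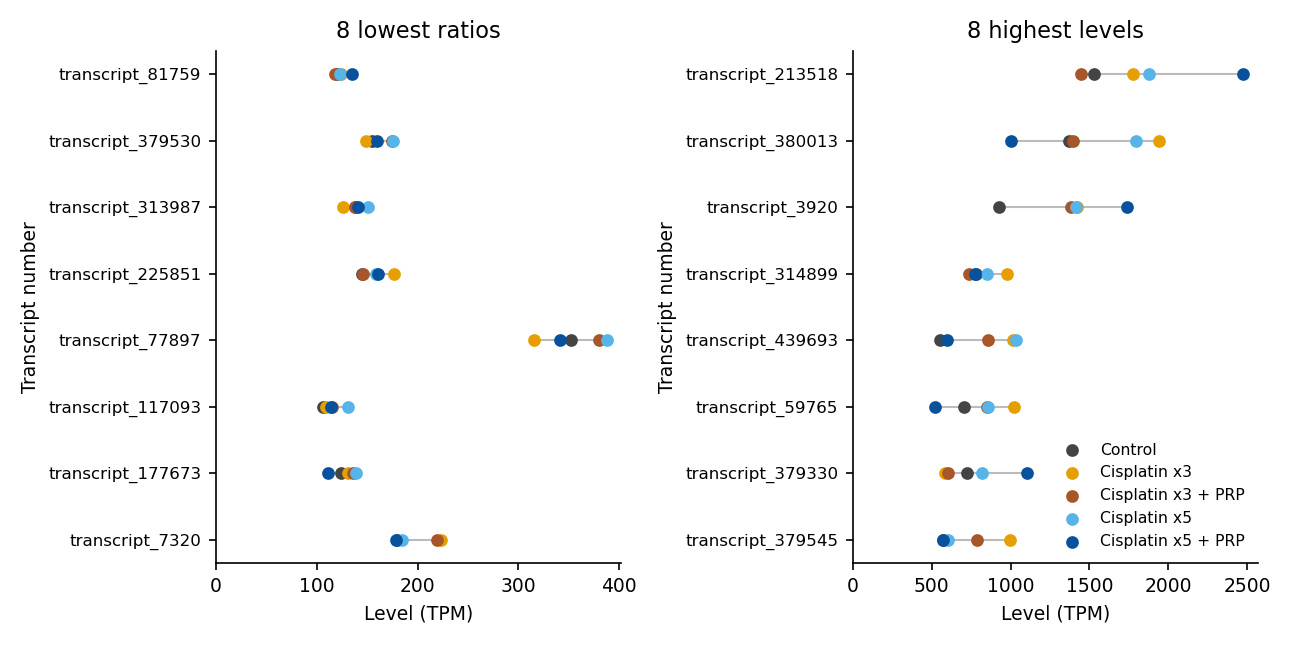
Level in TPM (linear axis from 0) of the 8 members with the lowest ratio (left) and the 8 with the highest geometric mean level (right). Each point is 1 library, coloured by group, and grey lines join the lowest and highest. On the left the points lie within a ratio of 1.252, and on the right the 5-injection PRP library takes the highest place in transcript_213518, transcript_3920 and transcript_379330 and the lowest in transcript_380013, transcript_59765 and transcript_379545.

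The longest members were transcript_144977, of 8193 bases, transcript_379169, of 6996 bases, and transcript_327598, of 5901 bases. In the order of libraries used above, transcript_144977 was at 156, 125, 153, 182 and 119 TPM. For transcript_379169 the levels were 227, 321, 314, 309.9 and 326 TPM, with the control ovary below the 4 treated ones, which lay between 309.9 and 326 TPM. In transcript_327598 the 5-injection ovary, at 349 TPM, stood above the other 4, at 211 to 251 TPM.

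Just inside the ratio limit was transcript_322719, of 1512 bases, at a ratio of 1.998. Its levels were 217, 161, 298, 236 and 149 TPM. It was followed by transcript_65416 at 1.98, transcript_59765 at 1.98, transcript_448520 at 1.97 and transcript_199245 at 1.97. Just outside were transcript_379667 at 2.07, transcript_239770 at 2.07, transcript_271297 at 2.08, transcript_87082 at 2.09 and transcript_59770 at 2.10. For 9 members the counting interval of the ratio reached 2, and for 0 of the 89 variable transcripts did it reach below 2. Near the level limit, transcript_176345 was inside at a lowest value of 100.4 TPM and transcript_314901 outside at 99.2 TPM. Near the length limit, transcript_379530 was inside at 1006 bases and transcript_379436 outside at 997 bases.

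Seen by library, the control ovary held the lowest value of most members. It was lowest for 73 of 129, the 5-injection PRP ovary for 28, and the others for 6 to 12 each. The highest value fell in the 3-injection ovary for 37 members, in the 3-injection PRP ovary for 36, in the 5-injection PRP ovary for 35, in the 5-injection ovary for 16 and in the control ovary for 5. Measured as log2 TPM minus the transcript's own mean log2 TPM, the median deviation was -0.25 in the control ovary. It was 0.10 after 3 injections, 0.08 after 3 with PRP, 0.01 after 5 and 0.02 after 5 with PRP. The 4 treated ovaries lay close together on this scale, and the control ovary lay below them. Among the variable abundant transcripts the control median was negative too. It was -0.09 at 1000 to under 1500 bases, -0.51 at 1500 to under 2000 bases and -0.29 at 2000 bases or more. There the 5-injection PRP ovary was also negative, at -0.21, -0.26 and -0.45 in the same classes.

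The order of the libraries among the members changed with the scaling. With median-of-ratios factors from the 10630 transcripts at 5 TPM or more in every library, the control ovary was lowest for 27 members, and the 3-injection and 3-injection PRP ovaries for 36 each. With the planned median-of-ratios scaling the 3-injection PRP ovary was lowest for 76. With quantile normalization the 5-injection PRP ovary was lowest for 73, and with CPM, which scales counts to the library's total without dividing by length, the 3-injection PRP ovary for 54. The number of members highest in the 5-injection PRP ovary, 35 by TPM, was 74 with the factors over 5 TPM, 117 with the planned ones, 91 with CPM and 13 with quantile normalization. A ratio under 2 bounds how far a member can move, but no library was lowest for most members under all of these scalings.

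The deviations varied with the members' length. In the 57 members of 1000 to under 1500 bases the 5-injection PRP ovary had the highest median deviation, 0.13, and held the highest value of 24 and the lowest of 11. In the 39 of 1500 to under 2000 bases its median was 0.02, and it held the highest value of 9. In the 33 of 2000 bases or more its median was -0.09, and it held the highest value of 2 and the lowest of 10. Across the 129 members, the Spearman correlation of length with the deviation was -0.32 in this library and 0.01 to 0.17 in the other 4. The members share each library's depth and fragment length, so this describes the libraries. Fragments were short in the 5-injection PRP library, at 194 bases, but also in the 3-injection library, at 186 bases, where the correlation was 0.17. The part of fragment length in the pattern was not tested.

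**Figure D3:**
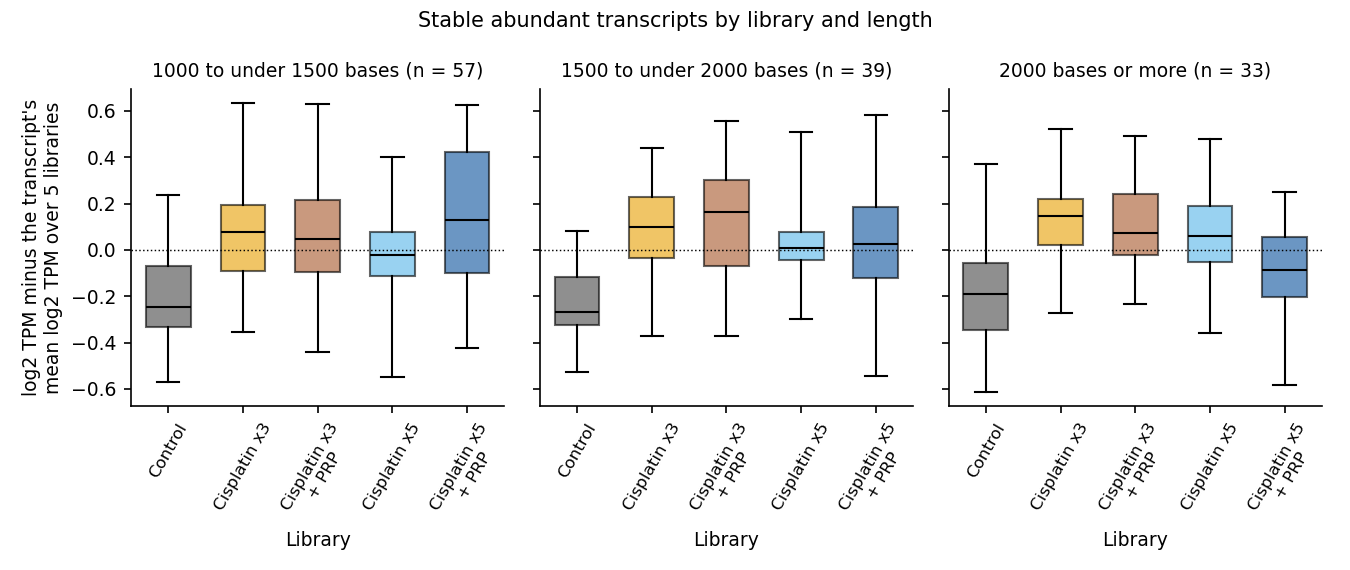
For each library, boxes show the deviation of log2 TPM from the transcript's mean over the 5 libraries (vertical axis) in members of 3 length classes. Boxes span the quartiles, the line is the median and whiskers reach the lowest and highest member. The control library lies lowest in each class, at medians of -0.25, -0.27 and -0.19, and the 5-injection PRP library falls from 0.13 to -0.09 with length.

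The comparisons between ovaries are given as differences of log2(TPM + 1). Since the rule bounds them, no member could reach a 2-fold difference, and 0 of 129 did in any of the 4 comparisons. Of all transcripts with 5 TPM or more in either library, 11.2% were at least 2-fold higher and 12.7% lower after 3 injections than in the control ovary. After 5 injections these shares were 9.89% and 9.03%. With PRP they were 15.2% and 12.7% after 3 injections, and 9.94% and 31.6% after 5. These shares hold on the TPM scale. With the planned median-of-ratios scaling, whose factors rest mostly on transcripts of very low level, 842 transcripts were higher and 8597 lower with PRP on the shorter schedule, and 10696 and 1559 on the longer, the reverse balance. Quantile normalization gave 2638 and 2835, then 3323 and 3697. Median-of-ratios scaling over transcripts at 5 TPM or more gave 2933 and 2541, then 2739 and 5159, the same balance as TPM. The TPM percentages are the background, and the members' count of 0 follows from how they were chosen.

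Cisplatin set against control gave members a small upward difference after both schedules on the TPM scale, although after 5 injections CPM turned it to -0.028 and the planned median-of-ratios scaling to -0.35. After 3 injections the median was 0.33, from -0.43 to 0.96, and 106 of 129 were above control, beside a median of 0.21 over all 19870 transcripts compared. After 5 injections the median was 0.21, from -0.73 to 0.91, and 113 were above control, beside 0.22 over all 20635. The variable abundant transcripts had larger medians, 0.56 and 0.41 in the same order, while the rule bounds the values of the members. Both comparisons use the same control library. At a 1.5-fold limit, 23 of the 129 members were higher and 0 lower after 3 injections, against 23.9% and 19.7% of all transcripts. For the longer schedule the numbers were 12 and 2 of 129, against 22.2% and 14.7%. The rule limits these counts, so their distance from the shares of all transcripts is no measure of how cisplatin acted. With median-of-ratios scaling over transcripts at 5 TPM or more, the median differences of the members were 0.04 and 0.01, and those of all transcripts -0.09 and 0.01.

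On the TPM scale, PRP set against cisplatin alone gave no common direction, and other scalings moved the members' median either way. On the shorter schedule it was -0.94 with the planned median-of-ratios scaling, -0.17 with CPM and 0.16 with quantile normalization. On the longer it was 1.42, 0.37 and -0.34 in the same order, and 0.24 with median-of-ratios scaling over transcripts at 5 TPM or more. The values that follow are on the TPM scale. After 3 injections the median of the members was -0.02, from -0.78 to 0.89, with 62 higher and 67 lower, beside 0.08 over all 21359 transcripts. After 5 injections it was 0.00, from -0.87 to 0.86, with 63 higher and 66 lower, beside -0.48 over all 20458. At the 1.5-fold limit 8 of the 129 members were higher and 4 lower on the shorter schedule, against 25.4% and 21% of all. The numbers were 13 and 11 of 129 on the longer, against 16% and 45.8%. The variable abundant transcripts had medians of -0.28 and -0.35 in these comparisons. On this scale the rule keeps each member's difference under 2-fold in either direction, but it does not set their median. Their distance from the medians and shares of all transcripts is thus no measure of how PRP acted.

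Within the classes of length, the members' PRP difference after 5 injections had a median of 0.16 at 1000 to under 1500 bases, 0.00 at 1500 to under 2000 bases and -0.06 at 2000 bases or more. The medians over all transcripts compared were -0.14, -0.21 and -0.58 in the same classes. After 3 injections the members' medians were -0.02, 0.02 and -0.03, beside 0.009, 0.03 and 0.19 over all transcripts, which were higher in the longer classes. On the longer schedule the median was thus lower in the longer classes, both among the members and over all transcripts. The rule bounds the members' values in every class.

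Taking the members as a reference set, each library can be scaled so that their median deviation is 0. The factors are 0.842 for control, 1.07 and 1.06 for 3 injections without and with PRP, and 1.01 and 1.02 for 5. On that scale 1527 transcripts were at least 2-fold higher and 3872 lower after 3 injections than in the control ovary, in place of 2218 and 2530. After 5 injections the counts were 1423 and 2622, in place of 2041 and 1864. The PRP comparisons hardly moved, to 3107 and 2548 on the shorter schedule and 2012 and 6464 on the longer. These changes follow from the factors, which move all transcripts of a library alike and come from the values the rule used. With the members as reference, 140 transcripts met the rule, 123 of them members.

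After that scaling, transcript_120846, of 2010 bases, departed least from its own mean, by -0.08 to 0.06 log2 units. Its levels before it were 170.4 TPM in the control ovary, 215 and 201 TPM after 3 injections without and with PRP, and 186 and 204 TPM after 5. The next 4 were transcript_379772, transcript_84500, transcript_464455 and transcript_332882, whose departures stayed within -0.11 and 0.12. Of these, transcript_84500, of 1985 bases, was the most abundant, at 409.8 TPM in the control ovary and 545, 492, 519.9 and 529 TPM in the treated ovaries. In all 5 transcripts the control value was the lowest before scaling, and none of the 5 was among the 8 steadiest on the plain TPM scale. Both follow largely from the centring. It selects transcripts close to the members' median pattern, in which the control ovary was lowest. The choice of steadiest transcripts therefore depended on the scale.

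The share of steady transcripts differed between levels. Of transcripts of 1000 bases or more listed in all 5 libraries, without a minimum in each, the share with a ratio under 2 was 37.6% at a geometric mean of 5 to under 10 TPM. It was 58.0% at 20 to under 50 TPM and 57.9% at 50 to under 100 TPM. It then fell to 53.5% at 100 to under 200 TPM, 45% at 200 to under 500 TPM and 31.6% at 500 TPM or more. The last class held 38 transcripts and 12 members. Counting error is larger in the low classes, where the median estimated count summed over libraries was 3157, than at the top, where it was 161247. The part of counting error in these shares was not tested. The share was also set beside that of shorter transcripts. Of 518 under 1000 bases with at least 100 TPM in all libraries, 188 (36.3%) had a ratio under 2, beside 59.2% of the 218 longer ones. Among these 218, members made up 62.0% at 1000 to under 1500 bases, 58.2% at 1500 to under 2000 bases and 55.9% at 2000 bases or more. The minimum of 100 TPM in each library removes variable transcripts whose mean is a little above it, which raises the share of members at low levels.

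**Figure D4:**
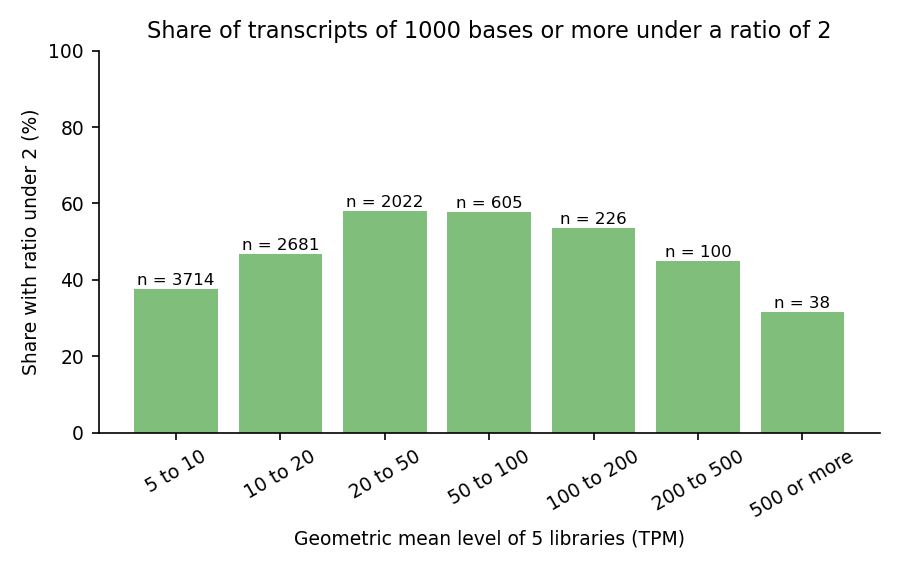
Bars give the percentage of transcripts of 1000 bases or more, listed in all 5 libraries, whose highest level was under 2 times the lowest (vertical axis, from 0), by geometric mean level in TPM (horizontal axis). The number of transcripts stands above each bar. The share rises from 37.6% to 58.0% and falls to 31.6% in the highest class.

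Few members had whole estimates. Estimated counts are not whole where reads that fit several similar transcripts were divided among them. Only 4 of 129 members (3.10%, Wilson 95% interval 1.21% to 7.70%) had estimates within 1e-06 of a whole number in all libraries. It was 1 of the 89 variable abundant transcripts (1.12%, 0.199% to 6.09%). Of all transcripts of 1000 bases or more listed in the 5 libraries, 40.8% had whole estimates, but the share fell with level, from 22.0% at 20 to under 50 TPM to 4.42% at 100 to under 200 TPM. The levels of the other 125 members are therefore uncertain wherever near-identical copies shared their reads.

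The 4 members with whole estimates were transcript_7320, transcript_225852, transcript_266229 and transcript_124418. For transcript_7320, of 2949 bases, the levels were 179 TPM in the control ovary, 224 TPM after 3 injections, 219 TPM with PRP added, 185 TPM after 5 injections and 179 TPM with PRP added. Both 3-injection ovaries were higher than the other 3. For transcript_225852, of 1185 bases, they were 146, 186, 153, 152 and 186 TPM in the same order, with the 3-injection and 5-injection PRP ovaries higher than the other 3. For transcript_266229, of 1178 bases, they were 102, 134, 112, 129.8 and 117 TPM, and both cisplatin-only ovaries were highest. The 4th, transcript_124418, of 1022 bases, was at 139.6, 242, 153, 194 and 245 TPM, a ratio of 1.76. The other ratios were 1.25, 1.28 and 1.32.

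The members' numbers were not spread evenly. Of 129, 20 had numbers from 379000 to 379999, and no other run of 1000 numbers held more than 2. This run was singled out after its values were seen. It held 617 of the listed transcripts, or 0.206%, and 95 of these were of 1000 bases or more. It held 15.5% of the members and 12.4% of the variable abundant transcripts, 11 of 89, so the run was rich in abundant transcripts of both kinds. All transcripts of the run together made up 7.62% of TPM in the control ovary, 9.53% and 8.54% after 3 injections without and with PRP, and 8.71% and 12.5% after 5. The members within it made up 17.5% to 20% of the members' summed level in the 5 libraries. Each member was chosen for a ratio under 2, so the rule limits how far this share could move. None of the 20 had whole estimates. Their median ratio was 1.67, beside 1.55 for the 109 others. The sources used here do not say what the numbering follows.

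Consecutive numbers occurred in 4 pairs of members, and the pairs did not behave alike. In transcript_225851 and transcript_225852 the levels were nearly equal, at 145.3 and 146 TPM in the control ovary and 176 and 186 TPM after 3 injections. They were 161 and 186 TPM after 5 injections with PRP. Their sum had a ratio of 1.24. In transcript_441421 and transcript_441422 the former was higher in every ovary, at 185 against 134 TPM in the control ovary and 266 against 177 TPM in the 3-injection PRP ovary, where both were highest.

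In transcript_272867 and transcript_272868 the order turned over in 1 ovary. The former was above the latter in the control ovary (184 and 105 TPM), after 3 injections (232 and 127 TPM), with PRP added (192 and 123 TPM) and after 5 injections alone (207 and 121 TPM). In the 5-injection PRP ovary it was below, at 141 against 186 TPM. Their sum had a ratio of 1.24, smaller than the 1.64 and 1.77 of the transcripts alone. The lengths are 2579 and 1210 bases. In transcript_322718 and transcript_322719, of 1083 and 1512 bases, the order also turned over in that ovary, from 125 and 236 TPM without PRP to 204 and 149 TPM with it. The sum of this pair had a ratio of 1.69, beside 1.95 and 1.998. The ratio of a sum can never exceed the larger ratio of its parts, so the lower ratios of both sums were partly fixed in advance. In all 4 pairs with consecutive numbers the shorter transcript was the higher in the 5-injection PRP ovary. The lengths of transcript_441421 and transcript_441422 are 2353 and 2606 bases, and there the shorter was the higher in every ovary. Whether the transcripts of a pair belong to the same gene is not known from the files.

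**Figure D5:**
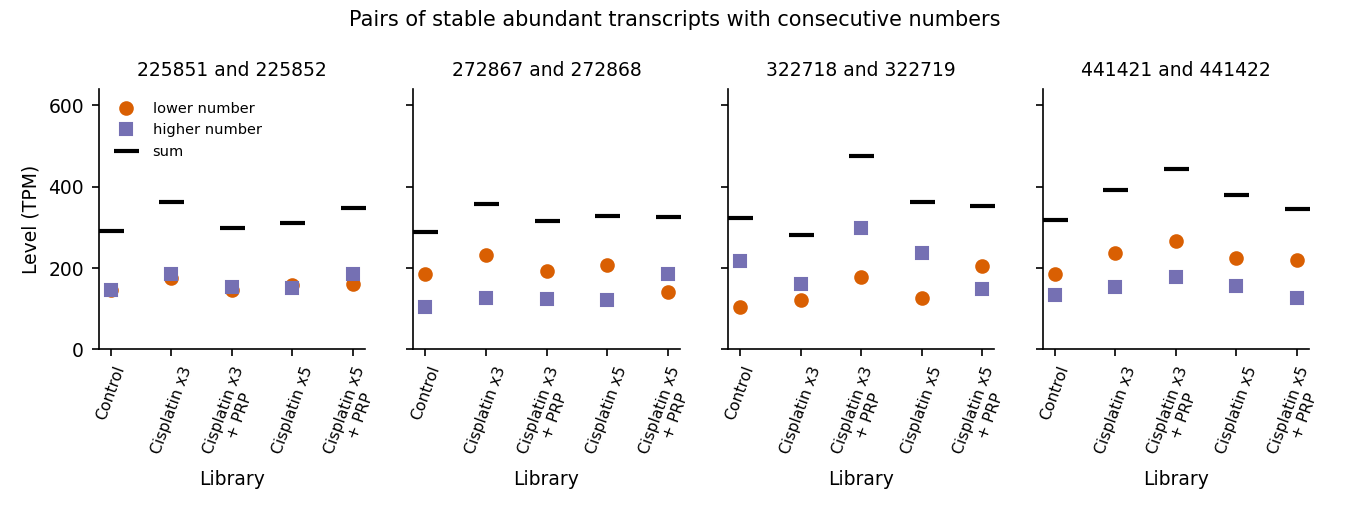
Levels in TPM (vertical axis, from 0) of the 4 pairs of members with consecutive numbers in each library (horizontal axis). Circles are the lower number, squares the higher number and bars their sum. In the panels of transcript_272867 and transcript_322718 the order of circle and square in the 5-injection PRP library is the reverse of that in the other 4 libraries.

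The order of abundance among the members was compared between libraries. Since a member's levels lie within a ratio of 2 while the members span a far wider range, a high rank correlation follows from the rule. The Spearman correlation of level across the 129 members was 0.785 to 0.907 over the 10 pairs of libraries, highest between the 3-injection and 5-injection ovaries and lowest between the control and 5-injection PRP ovaries. The members are not independent replicates, and each library enters 4 of the pairs. The 5-injection PRP ovary correlated at 0.785 to 0.852 with the others, whereas the pairs without it were at 0.837 to 0.907.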

How the data were processed

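RNA was extracted with a column kit and made into stranded libraries, per the labels' protocols, from 1 ovary of each of 5 groups. HISAT2, fastp, FastQC and MultiQC are listed in the submitters' processing notes. For the quantifying program, its transcripts and the build, no name is given in the sources used here. Per the file headers, the deposited tables hold length, effective length, estimated count and TPM of each listed transcript. Unlisted transcripts were taken as 0. In each library 61 to 110 deposited TPM values were more than 100 times too large against estimated count divided by effective length, and 0 to 5 estimated counts were; these counts were divided by 1000. TPM was recomputed from them to a total of 1000000, because the planned TPM column as deposited was not sound throughout. For 0 of 129 members did the deposited TPM differ by over 1%.

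The members and lists were chosen with earlier results of these data known. The rule was applied with Python 3.11.15 and pandas 2.3.3. Its code was checked on simulated Poisson counts, which hold no spread between animals and no shared reads. That check does not show how well the rule suits these data. Fold changes are differences of log2(TPM + 1), compared where either library reached 5 TPM. Members were named by rule: the 8 with the highest level, the 8 with the lowest ratio, 5 on either side of the ratio limit, the 3 longest, those with whole estimates, and the 5 steadiest after centring. Pairs with consecutive numbers and those beside the level and length limits were added after their values were seen. Counts carry exact Poisson and shares Wilson intervals of 95%, and that of a ratio is a normal approximation on the log scale. That of a median over the members is an order-statistic interval, which takes the members as independent although they are not replicates. The median-of-ratios scaling over 5 TPM, the scaling on the members and the omission of a run of numbers were chosen after seeing the data. Marker and reference gene lists could not be evaluated, as 0 identifiers had a name.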

Additional observations from a re-analysis of the deposited data

Results flagged for a closer look

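The PRP difference of the members took opposite signs after 3 and 5 injections in 2 length classes. At 1000 to under 1500 bases the median was -0.02 after 3 injections and 0.16 after 5, a difference of -0.18 on the log2 scale. At 1500 to under 2000 bases it was 0.02 and -0.0032, a difference of 0.028. Over all transcripts compared, the medians were 0.009 and -0.14 in the shorter class and 0.03 and -0.21 in the longer. The rule bounds each member's difference but does not set these medians. Over all members the sign of the PRP difference changed with the scaling after both schedules. The differences were not tested, because 1 library stands for each group.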

How the results depend on the processing

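The number of members followed the limits. From 129 it became 51 at a ratio under 1.5, 397 at 50 TPM, 40 at 200 TPM, 252 from 500 bases, 33 from 2000 bases and 4 with whole estimates only. CPM gave 621, 99 of them members. The planned median-of-ratios scaling gave 19, 3 of them members. Its factors came from 109755 transcripts with a median level of 0.391 TPM, and restricting it to 5 TPM or more gave 126, 108 of them members. Leaving out 1 library gave 138 to 183. An omission can only relax the limits, so all 129 members stayed each time and the number could not fall. The median ratio of 1.58 became 1.84 with median-of-ratios scaling, 1.51 with CPM, 1.67 at 200 TPM, 1.503 from 2000 bases and 1.297 with whole estimates only. At 200 TPM, 0 of 40 had whole estimates. The median log2 difference from control after 3 injections (0.33) became 0.55 with median-of-ratios scaling, 0.044 with that over 5 TPM, 0.14 with quantile normalization and 0.083 with CPM. After 5 injections (0.21) it became -0.35 and 0.011 with these 2 scalings and -0.028 with CPM. With PRP after 3 injections (-0.02) it became -0.94 with median-of-ratios scaling, 0.16 with quantile normalization, -0.17 with CPM and -0.27 with whole estimates only. With PRP after 5 injections (0.00) it became 1.42 with median-of-ratios scaling, 0.24 with that over 5 TPM, -0.34 with quantile normalization, 0.37 with CPM and 0.12 with whole estimates only. The cause of these shifts was not tested. The other 36 alternative values stayed within 1.5 times the count reported or within its 95% interval. For a median over the members, that interval covers the spread of members within the same libraries, not the spread between animals. Staying inside it is therefore a description only. The counts on leaving out 1 library are among the 36. The deposited TPM column and a pseudocount of 0.1 left these 4 medians the same to 2 decimals. No paired analysis was possible because each group had 1 library. Counting intervals of members had half-widths of at most 4.16%, but with 1 library per group the spread between animals is unknown.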
